A study of Mus musculus with 20 samples.

Results

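Smoc2, Crispld2, Spon1, Blnk, Fbln7, Nrxn2, Hpgd and Gsc were followed here as 8 of the 31053 genes in the single-cell RNA-seq tables of mouse interscapular brown fat. They were selected on their levels in these data: they are leading genes of the resting clusters of ASC1, a population of adipose tissue stromal cells, and they were picked as genes that this population loses in the cold. Levels in ASC1-like cells, and their differences from room temperature in those cells, are therefore given below as a description with no p-value. Counts of these genes called in those cells follow from the same choice. Levels are in CPM, the counts of a gene per 1000000 of the counts summed over all cells of a type in a library. Levels were read in 44142 stromal cells, 16760 of them ASC1-like, among the 66339 cells kept from the lineage-depleted (Lin-) libraries.

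Adipose tissue stromal cells are Pdgfra-positive fibroblast-like cells that surround adipocytes and vessels, build the extracellular matrix and include the progenitors of new adipocytes. Cold drives brown fat through noradrenaline released from sympathetic nerves, and in the tissue it leads stromal cells to divide and some of them to become brown adipocytes. Of the genes followed here, Smoc2 encodes a secreted calcium-binding matricellular protein of the SPARC family, Crispld2 a secreted CAP-domain glycoprotein with LCCL domains, Spon1 the matrix protein F-spondin and Fbln7 the matrix protein fibulin-7. Blnk encodes the adaptor that links the B cell receptor to phospholipase C, Nrxn2 a neurexin that bridges synapses, Hpgd the enzyme that inactivates prostaglandins by oxidising their 15-hydroxyl group, and Gsc the homeobox transcription factor goosecoid.

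The C57BL/6J libraries came from males of 8 to 14 weeks in 3 groups. The RT group stayed at 24 °C, and the COLD group spent 4 days at 6 °C. The CL group received CL316,243, which activates the β3-adrenergic receptor, at 0.75 nmol per hour over 4 days from an osmotic pump at 24 °C. There were 2 Lin- libraries in each of these groups. A second line, of females also 8 to 14 weeks old, carried floxed Adrb1 alleles, the gene of the β1-adrenergic receptor. The WT animals were Adrb1 fl/fl with Pdgfra-CreER -/-, and the KO animals were Adrb1 fl/fl and Pdgfra-CreER +/-, so that recombination was driven in Pdgfra-expressing cells. Tamoxifen was given to both genotypes. Each of the 4 groups of that line (WT RT, WT COLD, KO RT, KO COLD) had 1 Lin- library, and the 10x kit was version 3 in its RT libraries and version 2 in its COLD libraries, so that temperature and kit cannot be told apart there. Each library pooled cells of 3 to 4 mice, and p-values measure the spread between such pools. Cells bearing CD5, CD11b, CD45R, Gr-1, 7-4 or Ter-119 had been retained on a magnetic column as Lin+ cells, which formed 10 further libraries.

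The Lin- libraries held 7857161 to 31325800 corrected counts. The RT 2 library stood apart, with 28% of its barcodes kept after 72.0% had 10% or more mitochondrial counts. That share was 20.6% in WT RT and 41.3% in KO RT against 3.01% in WT COLD and 5.23% in KO COLD, and 2.89% to 12.8% in the other Lin- libraries of C57BL/6J, so that in the Adrb1 line it went with temperature. Its part in the differences there was not tested. The Lin- and Lin+ libraries of CL 2 shared 1098 cell barcodes, 17.1% of the smaller set, against at most 2.04% in the other pairs. ASC1-like cells were 3 clusters that raised the ASC1 markers: cluster 2 raised 7 of 7 of them, cluster 8 raised 7 of 7 and cluster 0 raised 4 together with 7 of 7 markers of activated ASC1 cells. These markers were not particular to the 3 clusters: cluster 16, which also raised 7 ASC2 markers and was given no name, raised 7 of them, and the ASC3-like cluster 1 raised 5. Of the 8 genes, 5 were among the 10 leading genes of cluster 2, which restates how they were chosen. Cluster 2 held 91.7% and 81.4% of the ASC1-like cells at RT, 8.95% and 20.3% in COLD, and 10.6% and 82.7% in CL, so that the ASC1-like cells of COLD and CL 1 came mainly from other clusters than those of RT and CL 2. The targeted gene Adrb1 was at 0 and 0.475 CPM in the ASC1-like cells of KO RT and KO COLD, and at 6.36 and 4.04 CPM in those of WT RT and WT COLD.

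Promoter sequences are shown for 4 of the genes, because the genes that lay lower together in the cold and those that differed little can then be set side by side. Crispld2 (chr8:119992438-120052794, plus strand) and Blnk (chr19:40928927-40994221, minus strand) had log2 differences of -3.10 and -2.04 between COLD and RT in ASC1-like cells of C57BL/6J. Fbln7 (chr2:128863865-128897034, plus strand) and Gsc (chr12:104471209-104473236, minus strand) differed least over the whole class, by -0.51 and -0.14. Fbln7 was still lower in both COLD libraries than in either RT library. The sequences are from RefSeq on GRCm38.p6 and run 5′ to 3′ from 250 bases before to 50 bases after the start site of the promoter table, with matches to the searched motifs in capitals. Their windows are chr8:119992188-119992487 for Crispld2, chr19:40994172-40994471 for Blnk, chr2:128863682-128863981 for Fbln7, whose start site there (128863932) lies 67 bases downstream of the gene's first annotated base, and chr12:104473187-104473486 for Gsc.
Crispld2: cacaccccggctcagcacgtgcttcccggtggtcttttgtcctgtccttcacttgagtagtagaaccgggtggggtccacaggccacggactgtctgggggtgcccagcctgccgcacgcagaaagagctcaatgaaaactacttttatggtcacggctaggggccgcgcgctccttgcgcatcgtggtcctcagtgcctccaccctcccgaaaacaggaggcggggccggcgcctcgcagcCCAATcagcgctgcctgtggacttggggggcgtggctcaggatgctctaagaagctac
Blnk: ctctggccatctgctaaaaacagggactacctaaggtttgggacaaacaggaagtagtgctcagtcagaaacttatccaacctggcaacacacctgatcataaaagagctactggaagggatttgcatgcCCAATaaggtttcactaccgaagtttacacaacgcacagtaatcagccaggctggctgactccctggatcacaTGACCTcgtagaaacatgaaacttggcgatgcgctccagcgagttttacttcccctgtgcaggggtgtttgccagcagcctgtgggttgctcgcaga
Fbln7: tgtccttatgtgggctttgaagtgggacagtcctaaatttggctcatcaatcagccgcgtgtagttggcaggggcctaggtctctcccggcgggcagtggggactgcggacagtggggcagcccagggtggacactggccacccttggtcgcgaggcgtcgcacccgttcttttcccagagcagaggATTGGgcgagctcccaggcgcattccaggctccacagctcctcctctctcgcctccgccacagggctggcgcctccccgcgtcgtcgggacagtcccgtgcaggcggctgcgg
Gsc: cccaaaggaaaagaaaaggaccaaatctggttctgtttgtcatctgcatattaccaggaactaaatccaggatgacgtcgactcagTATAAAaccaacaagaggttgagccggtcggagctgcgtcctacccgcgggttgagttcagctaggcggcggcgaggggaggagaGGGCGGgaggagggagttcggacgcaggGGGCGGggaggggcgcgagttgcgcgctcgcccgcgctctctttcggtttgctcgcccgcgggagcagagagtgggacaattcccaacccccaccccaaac
The letters searched on both strands were those of the TATA box (TATAAA), the GC box (GGGCGG) and the CCAAT box, the cAMP response element written as TGACGTCA, the goosecoid-type homeodomain site written as TAATCC, the nuclear receptor core site written as AGGTCA, and the STAT-type site written as TTCNNNGAA. Overlapping matches were each counted. CCAAT was found in Crispld2, Blnk and, as ATTGG on the other strand, Fbln7, against 37.41% of all 32851 promoters of this length. AGGTCA was found in Blnk alone of these promoters, as TGACCT, against 16.26% of all promoters. TGACGTCA (1.79% of all promoters), TAATCC (7.06%) and TTCNNNGAA (8.3%) were in none of the promoters read here. TATAAA, held by 13.62% of all promoters, and GGGCGG, held by 35.66%, were found in Gsc and also in the promoter of Hpgd (chr8:56294302-56294601), whose gene lies at chr8:56294552-56321046. The GC content of the 5 promoters found in the table was 63.0% for Crispld2, 50% for Blnk, 66.0% for Fbln7, 58.0% for Hpgd and 60.33% for Gsc, with a median of 52.67% over all promoters. The CCAAT letters were thus present in promoters of genes whose levels differed much in the cold and of a gene whose level differed little. The other genes lie at chr17:14279490-14404790 (Smoc2), chr7:113765998-114043375 (Spon1) and chr19:6418756-6533217 (Nrxn2), all on the plus strand. Smoc2, Crispld2, Nrxn2 and Hpgd overlap other annotated genes. Among these are Gm20388 on the strand of Crispld2, Gm45540 on that of Hpgd and Gm14964 opposite Nrxn2. How reads in the shared stretches were counted was not examined.

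Among the genes of secreted matrix proteins, the Smoc2 level of ASC1-like cells was 3980 and 5587 CPM at RT. It was 266 and 248 CPM in COLD and 577 and 1772 CPM in CL. Both COLD libraries and both CL libraries lay below both RT libraries. The log2 difference from RT, fitted with edgeR across the 6 C57BL/6J libraries, was -4.07 ± 0.91 (SE, n = 2 per group) in COLD and -1.71 ± 0.83 in CL. Crispld2 was at 561 and 1001 CPM at RT, 72.0 and 87.0 CPM in COLD, and 87.3 and 213 CPM in CL. The Crispld2 groups did not overlap, and its log2 difference was -3.10 ± 0.51 in COLD and -2.03 ± 0.49 in CL. Spon1 was at 197 and 238 CPM at RT, 39.1 and 29.1 CPM in COLD, and 56.0 and 78.3 CPM in CL, again with RT above both other groups. Its log2 difference was -2.56 ± 0.28 in COLD and -1.44 ± 0.27 in CL. Fbln7 differed less, with 422 and 658 CPM at RT, 319 and 356 CPM in COLD, and 319 and 361 CPM in CL. The 4 stimulated Fbln7 values lay close together and below both RT values, and the log2 difference of -0.51 ± 0.35 in COLD and -0.39 ± 0.35 in CL was within 2 SE of 0.

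Among the other genes, Blnk was at 73.3 and 154 CPM at RT, 25.5 and 22 CPM in COLD, and 17.1 and 34.4 CPM in CL. It lay below RT in all 4 stimulated libraries, by -2.04 ± 0.33 on the log2 scale in COLD and by -1.73 ± 0.33 in CL. Nrxn2 was at 60.2 and 128 CPM at RT, 30.1 and 25.8 CPM in COLD, and 27.4 and 32.7 CPM in CL. Its log2 difference was -1.53 ± 0.22 in COLD and -1.29 ± 0.22 in CL. RT 2 lay above RT 1 for both genes, while the COLD libraries were close to each other. Hpgd, the prostaglandin-inactivating enzyme, was at 73.2 and 137 CPM at RT, 39.1 and 53.3 CPM in COLD, and 56.7 and 85.2 CPM in CL. COLD lay below RT for Hpgd (-0.97 ± 0.28) and CL overlapped RT (-0.22 ± 0.28). Gsc was at 36.5 and 91.3 CPM at RT, 48.0 and 49.0 CPM in COLD, and 98.0 and 57.8 CPM in CL. For Gsc the RT libraries spanned both COLD values, and the COLD difference was -0.14 ± 0.24. The CL difference of 0.61 ± 0.24 was upward, but the CL and RT values overlapped.

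**Figure D1:**
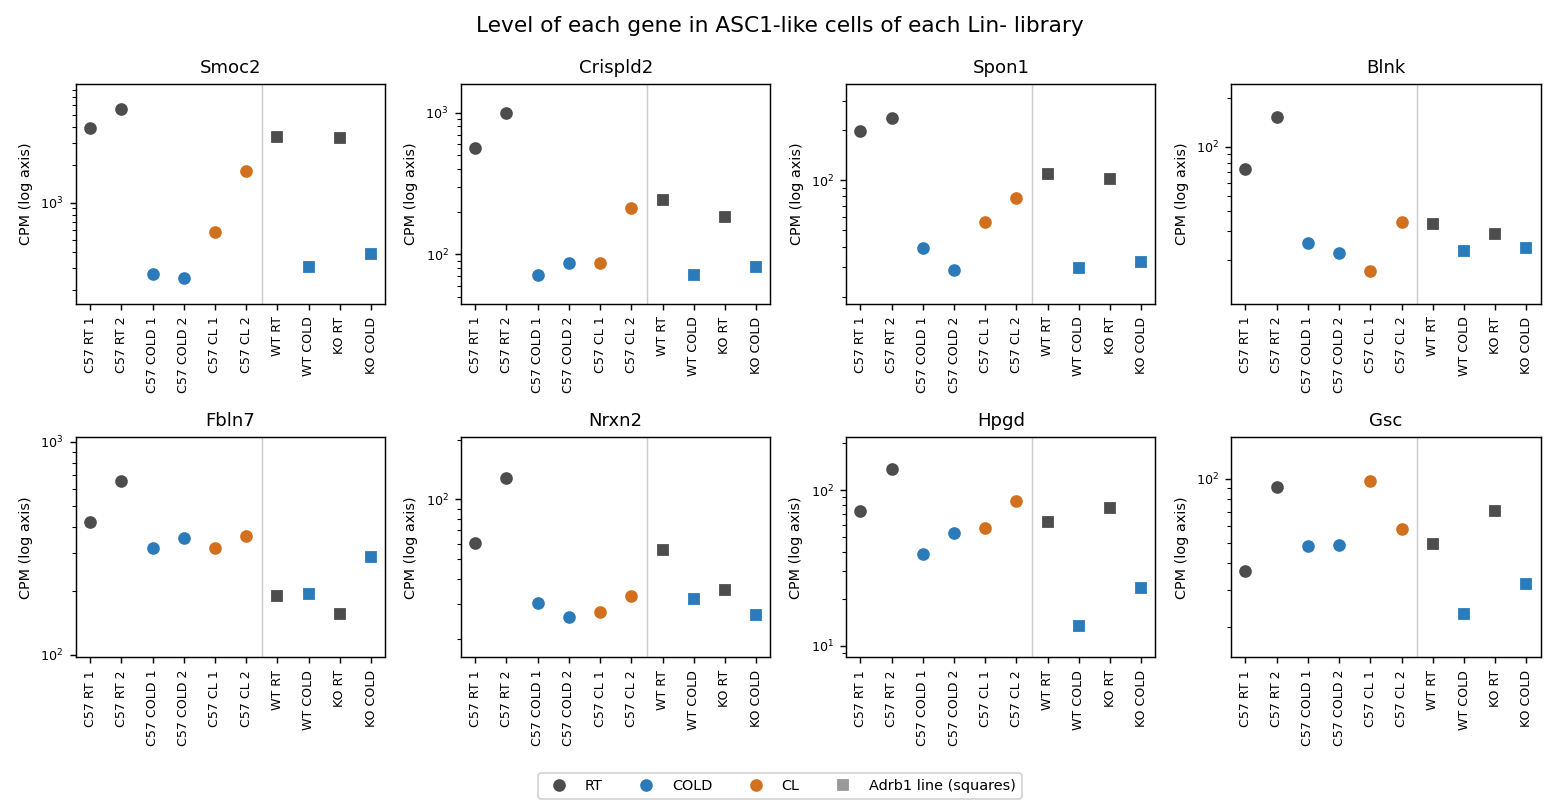
Level of each of the 8 genes in ASC1-like cells (CPM of summed counts, log axis) in the 10 Lin- libraries, with circles for C57BL/6J and squares for the Adrb1 line, 1 point per library. Smoc2 lies at 3980 and 5587 CPM at RT and at 266 and 248 CPM in COLD, whereas Gsc at RT spans its COLD values.

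The CL differences depended on single libraries. Without CL 1 they were -1.04 for Smoc2, -1.45 for Crispld2 and -1.26 for Blnk, and without CL 2 they were -2.93, -2.99 and -2.52. The edgeR fit over 12697 genes, adjusted over all of them, placed 5 of the 8 genes (Smoc2, Crispld2, Spon1, Blnk and Nrxn2) among those lower in COLD, where 6.88% of all genes tested were called lower and 14.3% were called in either direction. In CL it placed 3 of 8 (Spon1, Blnk and Nrxn2) among those lower, against 0.669% of all genes lower and 1.63% in either direction. These counts follow from how the genes were chosen, and nothing is read from them. The median log2 difference of the 8 genes was -1.78 in COLD and -1.37 in CL, beside -0.004 and 0.002 over all genes tested. COLD and CL were set against the same RT libraries. With the replicate number as a block, 6 of 8 genes were called lower in COLD, Hpgd being added, beside 1299 of 12697 genes lower. In CL it was 4 of 8, Crispld2 being added, beside 222 lower. DESeq2 called 5 of 8 lower in COLD and 4 of 8 in CL, beside 679 and 126 of all genes lower. The number called over all genes moved between the alternative runs, so nothing is read from these counts either. Fewer of the 8 genes were called in COLD without COLD 1, COLD 2 or RT 2, and more without CL 1 or CL 2. In CL more were called without CL 2 and fewer without any other single library. The number called over all genes moved the same way in each of these runs. Without single libraries the median of the 8 genes was -1.97 to -1.58 in COLD and -1.72 to -1.05 in CL. Without the barcodes shared by the CL 2 libraries edgeR called 0 of 8 in CL, beside 66 of 12528 genes in either direction. Summed adipocyte markers in ASC1-like cells were 305 and 227 CPM at RT against 947 and 764 CPM in COLD and 717 and 765 CPM in CL, and summed proliferation markers were 14.2 and 21.3 CPM at RT against 298 and 167 CPM in COLD and 133 and 33.7 CPM in CL. Summed mural markers were 75.4 and 42.2 CPM at RT, 240 and 126 CPM in COLD, and 161 and 87.3 CPM in CL. Their part in the differences was not tested.

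Within single clusters the genes separated into those that were lower in cells of every cluster and those that were not. In cluster 2, the cluster led by 5 of the genes, Smoc2 was at 4103 and 6172 CPM at RT, 1311 and 752 CPM in COLD, and 1742 and 2122 CPM in CL. In cluster 0, led by Cxcl10, Ccl2 and Saa3, Smoc2 was at 2199 and 2953 CPM at RT, from only 55 and 32 cells. It was at 208 and 164 CPM in COLD (2274 and 1729 cells). In cluster 8, led by Lypd1 and Arxes1, it was at 1854 and 2146 CPM at RT (81 and 251 cells). In COLD it was there at 158 and 69.1 CPM (809 and 432 cells). Smoc2 was thus lower in both COLD libraries in each of the 3 clusters, and at RT it was highest in cluster 2. The log2 difference of Smoc2 in COLD was -2.18 in cluster 2 alone and -3.59 in clusters 0 and 8 together, beside -4.07 over the whole class. Crispld2 was lower in both COLD libraries in cluster 2 (582 and 1126 CPM at RT, 244 and 180 CPM in COLD) and in cluster 0 (237 and 384 CPM at RT, 69.1 and 74.1 CPM in COLD). Its log2 difference was -1.84 in cluster 2 and -1.89 in the other pair of clusters, and that of Spon1 was -1.67 and -1.83. Blnk differed by -1.45 in cluster 2 and by -0.59 in the others. For these genes the difference was smaller within clusters than over the class. Nrxn2 differed by -0.73 in cluster 2 and by 0.05 in clusters 0 and 8. Hpgd differed by 0.18 in cluster 2, where it was at 73.9 and 132 CPM at RT and at 112 and 95.7 CPM in COLD, and by -1.31 in clusters 0 and 8. Gsc differed by 0.36 in cluster 2 and by -0.94 in clusters 0 and 8, beside -0.14 over the class. Fbln7 did not lie lower in either set, with log2 differences of 0.16 and 0.05. The 8 genes were left out of the genes clustered. They were still chosen as leading genes of resting ASC1-like clusters, so sizes of clusters and levels between clusters are no independent measures of them.

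**Figure D2:**
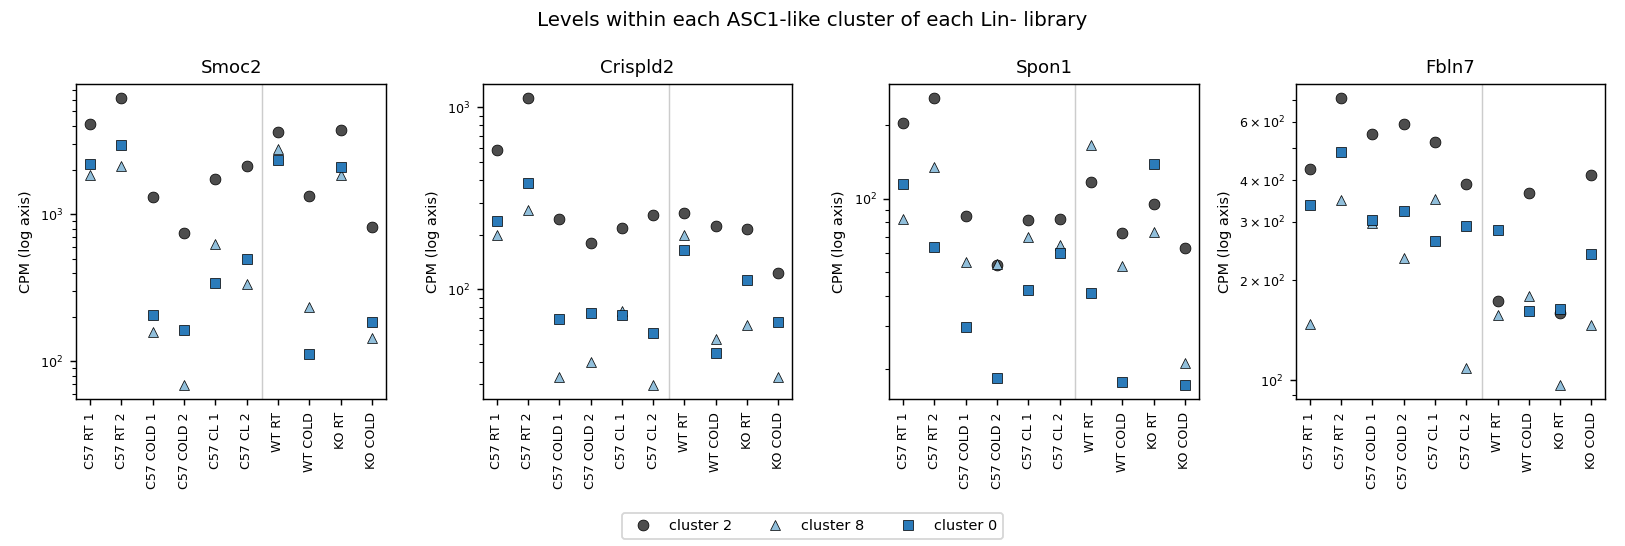
Levels of Smoc2, Crispld2, Spon1 and Fbln7 (CPM of summed counts, log axis) within clusters 2, 8 and 0 of the ASC1-like cells, 1 point per Lin- library. Smoc2 in cluster 2 is at 4103 and 6172 CPM at RT and at 1311 and 752 CPM in COLD, and Fbln7 there is at 431 and 708 CPM at RT and at 552 and 590 CPM in COLD.

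Fewer ASC1-like cells had any Smoc2 count after cold. ASC1-like cells were thinned to 1000 counts, and those with fewer were left out, which kept 1605 of 1638 and 1365 of 1520 cells at RT, 3265 of 3386 and 2561 of 2711 in COLD, and 1656 of 1844 and 1582 of 1625 in CL. A Smoc2 count was present in 90.5% (exact binomial 95% interval 88.9 to 91.9) and 86.7% (84.7 to 88.4) of cells at RT. The share was 21.9% (20.5 to 23.3) and 19.8% (18.3 to 21.4) in COLD. It was 35.2% (32.9 to 37.6) and 65.1% (62.7 to 67.5) in CL, so the CL libraries lay between RT and COLD and apart from each other. In unthinned cells the share was 98.2% and 86.0% at RT, 45.5% and 48.8% in COLD, and 49.2% and 83.8% in CL, at median depths of 5114 and 1541, 3404 and 5460, and 1792 and 4085 counts per cell. In vascular endothelial cells, which should lack Smoc2, the thinned share was 0.412% to 5.25% over the libraries at median depths of 891 to 2281 counts, below all ASC1-like shares. Immune cells, which should lack it too, held more Smoc2 than endothelial cells, at 240 and 236 CPM at RT, 47.9 and 32.8 CPM in COLD, and 65.0 and 170 CPM in CL, below the ASC1-like level of the same library in 6 of 6. Their share of cells with a count was not computed. Cells with no count of any of the 8 genes after thinning were 5.11% and 5.35% of ASC1-like cells at RT, 45.8% and 46.7% in COLD, and 39.1% and 19.7% in CL. Intervals of counts here cover counting error only.

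In the Adrb1 line, with 1 library a group, no test was run. Smoc2 in ASC1-like cells was at 3366 CPM in WT RT (exact Poisson interval 3284 to 3450) and 304 CPM in WT COLD (295 to 314). It was at 3279 CPM in KO RT (3192 to 3367) and 386 CPM in KO COLD (373 to 400). Both genotypes were thus lower in COLD, as in C57BL/6J. The ASC1-like cells again came from different clusters, with cluster 2 making up 74.8% of them in WT RT, 22.9% in WT COLD, 72.4% in KO RT and 38.4% in KO COLD. Within cluster 2 Smoc2 was at 3636 and 1325 CPM in WT RT and WT COLD and at 3722 and 826 CPM in KO RT and KO COLD. Within cluster 0 it was at 2330 and 113 CPM in WT and at 2099 and 186 CPM in KO, each RT library having 63 cells there. The COLD libraries of the genotypes thus lay in opposite orders in these clusters, and no difference between genotypes is read from 1 library each. Crispld2 was at 243 and 71.7 CPM in WT RT and WT COLD and at 184 and 81.2 CPM in KO RT and KO COLD. Spon1 was at 109 and 29.8 CPM in WT and at 102 and 32.2 CPM in KO in the same order, and Hpgd was at 62.5 and 13.5 CPM in WT and at 77.0 and 23.5 CPM in KO. Smoc2, Crispld2, Spon1 and Hpgd were thus lower in the COLD library of either genotype, with counting intervals that did not overlap. Blnk was at 33.4 CPM in WT RT (25.7 to 42.8) and 22.7 CPM in WT COLD (20.2 to 25.4), and at 29.1 CPM in KO RT (21.4 to 38.6) and 23.6 CPM in KO COLD (20.4 to 27.2), so that in the KO its counting intervals overlapped. Nrxn2 was at 55.6 and 31.7 CPM in WT and at 35 and 26.2 CPM in KO, and Gsc at 49.2 and 23 CPM in WT and at 70.4 and 31.9 CPM in KO. Blnk, Nrxn2 and Gsc thus also lay lower in the COLD library of either genotype. For Gsc the counting intervals did not overlap, unlike in C57BL/6J, where its RT libraries spanned the COLD values. For Nrxn2 they overlapped in KO only. Fbln7 went the other way, from 189 to 194 CPM in WT, within overlapping intervals (170 to 210 and 186 to 201), and from 156 to 288 CPM in KO. The thinned share of ASC1-like cells with a Smoc2 count was 86.3% in WT RT, 24.9% in WT COLD, 87.2% in KO RT and 27.8% in KO COLD.

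The other stromal types tested whether the same genes moved outside the cells that chose them. At RT ASC2-like cells, which express Pi16 and Dpp4, lay below ASC1-like cells for 7 of the 8 genes, which restates how these were chosen. They overlapped ASC1-like cells for Gsc. Smoc2 there was at 143 and 32.4 CPM at RT, 131 and 62.4 CPM in COLD, and 139 and 88.1 CPM in CL. The groups overlapped, and the log2 difference in COLD was -0.05 ± 0.64 (edgeR quasi-likelihood, adjusted p = 0.993, n = 2 per group). Fbln7 was at 11.5 and 6.77 CPM at RT and at 26 CPM in both COLD libraries, and Crispld2 at 17.3 and 15.9 CPM at RT and at 9.78 and 7.96 CPM in COLD. Neither passed the test, with log2 differences of 1.42 ± 0.35 (edgeR adjusted p = 0.140) and -0.90 ± 0.35 (edgeR adjusted p = 0.396). Of the 7 genes tested (Blnk was too low), 0 were called in COLD, where 0.833% of 11046 genes were called, and 0 in CL, where 0.118% were called. An unadjusted p under 0.05 was reached by 2 of the 7 in COLD and 0 in CL, beside 1184 and 936 of 11046 genes. DESeq2 called 0 in either, beside 132 and 54 of all genes. With the replicate number as a block Fbln7 rose in COLD by 1.48 (edgeR adjusted p = 0.0337), and without RT 1 it rose by 2.32 (edgeR adjusted p = 0.0351). In the same ASC2-like cells summed adipocyte markers were 24.4 and 38.4 CPM at RT against 393 and 84.3 CPM in COLD, and proliferation markers 13.9 and 11.1 CPM against 118 and 39.4 CPM, and their part was not tested.

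ASC3-like cells, which express Gdf10 and Clec11a, held more of the matrix genes. Smoc2 was at 728 and 449 CPM at RT, 816 and 429 CPM in COLD, and 383 and 422 CPM in CL. RT and COLD spanned the same range, and the log2 difference in COLD was -0.02 ± 0.52 (edgeR adjusted p = 0.999). Crispld2 was at 219 and 203 CPM at RT, 163 and 143 CPM in COLD, and 107 and 138 CPM in CL, with a difference in COLD of -0.50 ± 0.32 (edgeR adjusted p = 0.781). Spon1 was at 93.6 and 72.1 CPM at RT, 51.3 and 37.6 CPM in COLD, and 35 and 29.3 CPM in CL. Its groups did not overlap, but the log2 differences of -1.02 ± 0.29 in COLD (edgeR adjusted p = 0.212) and -1.30 ± 0.29 in CL (edgeR adjusted p = 0.139) did not pass over 9381 genes. Without RT 2 both did, at -1.42 (edgeR adjusted p = 0.0169) and -1.70 (edgeR adjusted p = 0.0137). Between RT and COLD the ASC3-like cells also went from 39.5 and 57.1 CPM to 206 and 83.1 CPM in summed adipocyte markers, from 9.32 and 21.3 CPM to 86.7 and 62.2 CPM in proliferation markers, and from 50.9 and 28.9 CPM to 158 and 72.8 CPM in mural markers, whose part was not tested. Fbln7 was at 59.3 and 94.9 CPM at RT and at 148 and 93.6 CPM in COLD, a difference of 0.68 ± 0.27 (edgeR adjusted p = 0.514). Of 7 genes tested 0 were called in COLD or CL, where 0.49% and 0.149% of all genes were called. An unadjusted p under 0.05 was reached by 2 in each, beside 753 and 608 of 9381 genes. DESeq2 called 0, beside 32 and 20 of all genes. In the Adrb1 line Smoc2 in ASC3-like cells was at 637 and 536 CPM in WT RT and WT COLD and at 706 and 655 CPM in KO RT and KO COLD. Whether the difference in ASC1-like cells was unlike that in ASC2-like or ASC3-like cells was not tested.

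**Figure D3:**
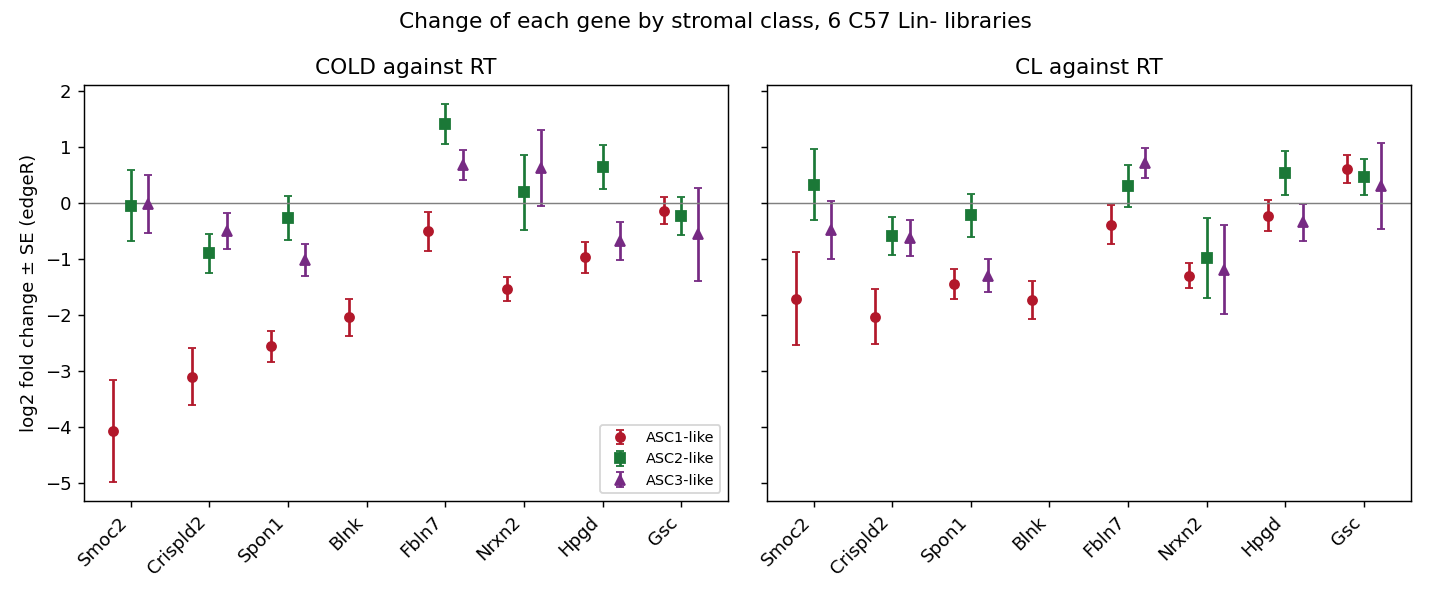
Log2 difference from RT (points, with bars of 1 SE from the edgeR fit) of each gene in ASC1-like, ASC2-like and ASC3-like cells of the C57BL/6J libraries, for COLD and for CL, with 2 libraries per group. For Smoc2 the COLD point is at -4.07 in ASC1-like cells, but at -0.05 in ASC2-like cells and -0.02 in ASC3-like cells.

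A pair of small stromal clusters that were given no name also held much Smoc2, and there the COLD and RT libraries overlapped. In cluster 16, which Cilp, Thbs4 and Myoc led, Smoc2 was at 1955 and 2112 CPM at RT (109 and 149 cells), 2556 and 2029 CPM in COLD (51 and 67 cells), and 1522 and 1590 CPM in CL. In cluster 25, which Sfrp5 and Angptl7 led, it was at 2729 and 3355 CPM at RT (27 and 49 cells), 3228 and 2806 CPM in COLD (40 and 53 cells), and 2029 and 3236 CPM in CL. Crispld2 in cluster 25 was at 721.5 and 1246 CPM at RT and at 952 and 843.5 CPM in COLD. Neither gene lay lower in the cold in cluster 25 beyond the spread of the RT libraries. In the Adrb1 line Smoc2 in cluster 16 was at 932 and 961 CPM in WT RT and WT COLD, whereas in cluster 25 it was at 6845 and 2788 CPM. These clusters were picked out after their values were seen, and they were not tested.

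High levels in ASC1-like cells at RT restate how the genes were chosen. At RT the order of the Smoc2 levels was the same in both C57BL/6J libraries for its 4 highest groups. ASC1-like cells (3980 and 5587 CPM) stood above cluster 25, cluster 16 and ASC3-like cells (728 and 449 CPM). Schwann-like (279 and 157 CPM) and immune cells (240 and 236 CPM) overlapped below these. Mural-like cells (108 and 111 CPM) and ASC2-like cells (143 and 32.4 CPM) followed and were not distinct from each other. Of the named classes with at least 20 cells, endothelial cells were lowest, at 46.3 and 26.4 CPM. For Crispld2, ASC1-like cells (561 and 1001 CPM) and cluster 25 overlapped at the top, cluster 16 (182 and 348 CPM), ASC3-like (219 and 203 CPM) and mural-like cells (215 and 217 CPM) lay together below them, and ASC2-like (17.3 and 15.9 CPM) and endothelial cells (8.90 and 10.1 CPM) were lowest. Blnk was at most 1.97 CPM in ASC2-like and ASC3-like cells at RT. Nrxn2 was at 19.1 and 33.1 CPM in mural-like cells and at 2.92 and 9.53 CPM in ASC3-like cells, below the 60.2 and 128 CPM of ASC1-like cells. Gsc was at 23.2 and 38.9 CPM in ASC2-like cells, which overlapped its ASC1-like range of 36.5 and 91.3 CPM.

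In the 4 COLD libraries, stromal cells were also split by whether they had 2 or more counts over the cycle genes, at least 1 Adipoq count, both, or neither. Adipoq encodes adiponectin, a hormone made by adipocytes and by cells becoming them. Smoc2 in cells with neither was at 331 and 285 CPM in the C57BL/6J libraries, 389 CPM in WT and 443 CPM in KO. In cells with cycle genes only it was at 140, 110, 108 and 199 CPM in the same order, lower in 4 of 4 libraries. In cells with Adipoq only it was at 68.0, 145, 350 and 271 CPM, also lower in 4 of 4 on the CPM scale but nearly level in WT. In cells with both it was at 11.9 CPM (exact Poisson interval 9.66 to 14.5), 13.9 CPM (9.86 to 19.1), 65.6 CPM (50.8 to 83.3) and 247 CPM (189 to 318). The C57BL/6J cells with both gates thus held less Smoc2 than those of the Adrb1 line, where the KO value came from 26 cells. The gates took all stromal types together, and the mix of types was not matched between them. ASC3-like cells of the C57BL/6J COLD libraries held 816 and 429 CPM of Smoc2, against 266 and 248 CPM in ASC1-like cells. Among ASC1-like cells alone, those with Adipoq only were at 107, 181, 388 and 242 CPM in the same order. All ASC1-like cells were at 266, 248, 304 and 386 CPM, so that in WT the Adipoq cells lay higher.

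Crispld2 was at 78.0, 89.99, 90.9 and 91.8 CPM in cells with neither, 36.5, 43.2, 40.8 and 50.6 CPM in cycling cells, and 17.3, 34.8, 74.0 and 64.9 CPM in Adipoq cells. Fbln7 was at 275, 280, 165 and 210 CPM in cells with neither, 193, 221, 131 and 168 CPM in cycling cells, and 78.3, 120, 129 and 200 CPM in Adipoq cells. Both were lower in either gate in each library on the CPM scale. In Adipoq cells of KO the exact Poisson interval of Fbln7 (165 to 241 CPM) overlapped that of cells with neither (202 to 219 CPM). For Crispld2 the intervals overlapped in WT (59.1 to 91.6 against 86.3 to 95.7 CPM) and KO (45.5 to 89.8 against 86.4 to 97.3 CPM). Counted per 1000 cells, however, Fbln7 was higher in cycling cells in 4 of 4 libraries (log2 ratios of 0.32 and 0.41 in C57BL/6J, 0.74 in WT and 0.61 in KO) and in the Adipoq cells of KO (0.41), and Crispld2 was higher in the cycling cells of KO (0.08). Spon1 in the Adipoq gate was at 36.9, 39, 35.2 and 45.7 CPM against 33.4, 25.7, 32.4 and 38.2 CPM in cells with neither. With the gates set after cells were thinned to 1000 counts, that direction turned in both C57BL/6J libraries, to log2 ratios of -0.72 and -0.29, and was 0.07 in WT and 0.96 in KO. On the CPM scale Gsc hardly differed in cycling cells, at 45.5, 43.0, 17.2 and 25.5 CPM against 42.1, 40.1, 21.7 and 24.5 CPM, and so did Blnk, at 17.9, 17.8, 13.4 and 17.8 CPM against 19, 15.1, 15.9 and 12.7 CPM. Per 1000 cells both were higher in cycling cells in 4 of 4 libraries, by log2 ratios of 0.71 to 0.96 for Gsc and 0.69 to 1.35 for Blnk. With the gates set after thinning, in CPM, the cycling log2 ratios for Gsc were -0.16 and -0.24 in C57BL/6J, -0.04 in WT and 0.28 in KO. Those for Blnk were -0.63 and 0.01 in C57BL/6J, -0.06 in WT and -0.29 in KO. The median log2 ratio over the 8 genes was -0.46 ± 0.058 (SD over 4 libraries) for cycling cells and -0.53 ± 0.71 for Adipoq cells, the latter spread from -1.41 and -1.02 in C57BL/6J to -0.02 in WT and -0.03 in KO. The gates also held cells of greater depth, with medians of 4610 to 9345 counts in cycling cells against 2399 to 4225 in cells with neither. After thinning to 1000 counts the median for Adipoq cells was -1.23, from -1.86 and -2.05 in C57BL/6J to -0.61 in WT and -0.17 in KO, and that for cycling cells was -0.48. Counted per 1000 cells in place of in CPM, the median for cycling cells turned to 0.37, because their total was higher. For Adipoq cells it was then -0.21, from -0.90 and -0.59 in C57BL/6J to 0.16 in WT and 0.45 in KO, so that both libraries of the Adrb1 line turned upward. Within ASC1-like cells alone the Adipoq medians in CPM were -0.76 and -0.66 in C57BL/6J, 0.16 in WT and -0.27 in KO. RT libraries had 6 to 28 cycling cells and 3 to 12 Adipoq cells, too few to set beside these.

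**Figure D4:**
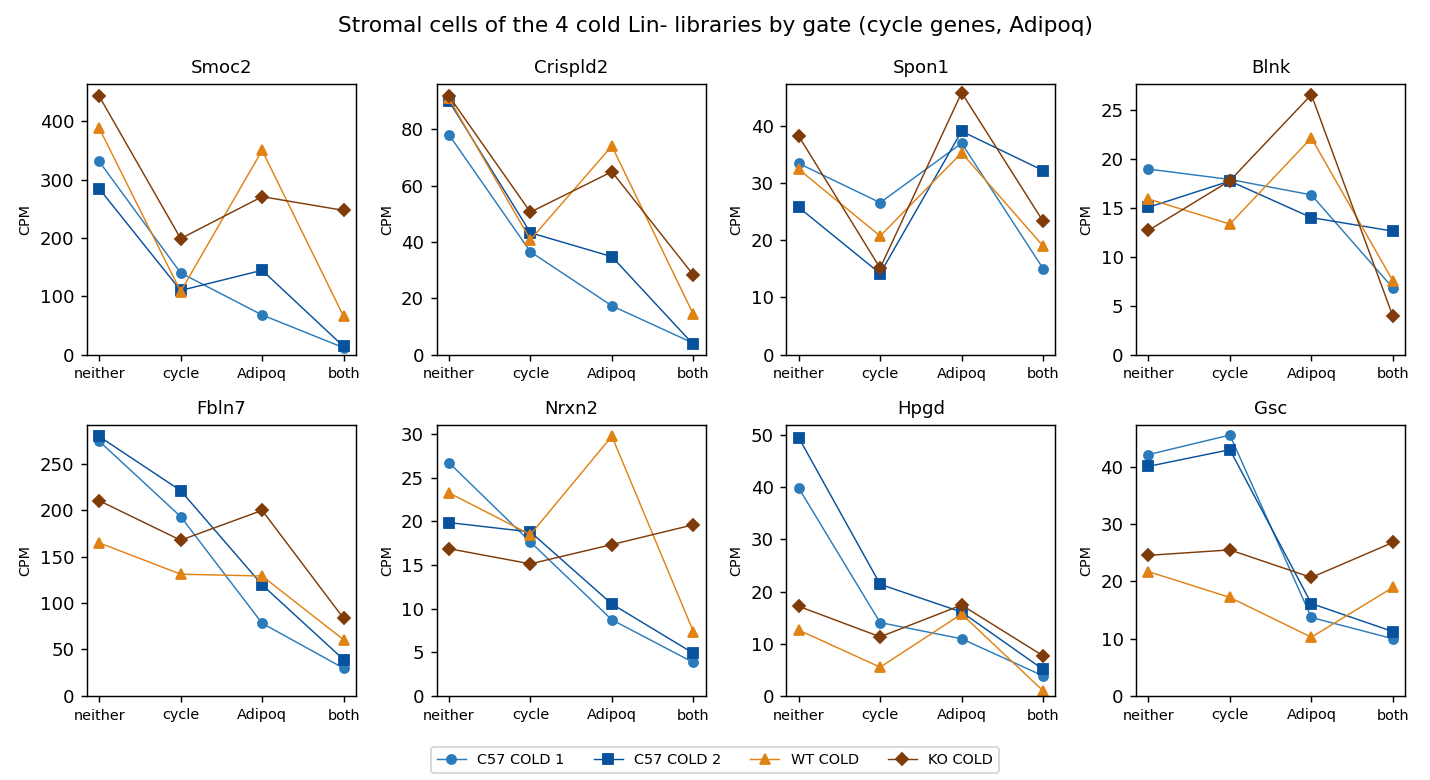
Levels of the 8 genes (CPM of summed counts) in stromal cells of the 4 COLD libraries that had neither gate, cycle genes, Adipoq, or both, 1 point per library. Smoc2 is at 331 and 285 CPM in C57BL/6J cells with neither and at 11.9 and 13.9 CPM in cells with both, and lines join the points of a library.

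Clusters of proliferating cells and of adipocyte-like cells, named from their own markers, gave levels of the same kind. Smoc2 in the proliferating cells of the COLD libraries was at 63.9 and 74.1 CPM in C57BL/6J, 98.1 CPM in WT and 232 CPM in KO. In the adipocyte-like cells of the same libraries it was at 8.42, 8.34, 17.8 and 21.6 CPM. Fbln7 was at 82.9, 141, 119 and 155 CPM in the proliferating cells, and at 23.7 and 26.7 CPM in the C57BL/6J adipocyte-like cells. In the adipocyte-like cells Smoc2 was below the 15.9 and 16.8 CPM of endothelial cells from the same C57BL/6J COLD libraries, a type that should lack it.

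Several of the genes were also measured in cells that are not stromal. Mural-like cells came from the same Lin- libraries in which the genes were chosen. In mural-like cells, the pericytes and smooth muscle of vessels, Crispld2 was at 215 and 217 CPM at RT, 382 and 452 CPM in COLD, and 188 and 280 CPM in CL. COLD lay above RT, the opposite side from ASC1-like cells, by a log2 difference of 1.04 ± 0.39 that did not pass (edgeR adjusted p = 0.391, 9922 genes tested). The make-up of the class moved too. Cluster 12, led by the smooth muscle genes Myh11, Tagln and Acta2, was 158 of 480 and 258 of 657 mural-like cells at RT and 342 of 580 and 271 of 507 in COLD, and the others were of cluster 15, led by Kcnj8 and Rgs5. Crispld2 was at 285 and 227 CPM at RT and at 468 and 603 CPM in COLD within cluster 12, and at 156 and 208 CPM against 212 and 218 CPM within cluster 15. Both COLD values thus lay above both RT values in either cluster, by little in cluster 15. In the Adrb1 line Crispld2 in mural-like cells was at 243 CPM in WT RT (exact Poisson interval 210 to 281) and 635 CPM in WT COLD (579 to 695). It was at 246 CPM in KO RT (198 to 303) and 698 CPM in KO COLD (619 to 784), so that all COLD libraries stood above all RT libraries. Markers of other types in C57BL/6J mural-like cells moved with it: summed adipocyte markers were 65.2 and 126 CPM at RT and at 659 and 360 CPM in COLD, proliferation markers at 18.8 and 16.3 CPM and at 157 and 84.8 CPM, and Schwann cell markers at 28.2 and 63.3 CPM and at 68.1 and 132 CPM. Their part in the difference was not tested. Smoc2 in mural-like cells was at 108 and 111 CPM at RT and at 23.8 and 16.8 CPM in COLD, a fall of 2.34 ± 0.40 on the log2 scale (edgeR adjusted p = 0.0482), and it was the 1 gene called of 5 tested, where 0.353% of all genes were called. Within cluster 15 it was at 171 and 145 CPM at RT and at 21.4 and 17.5 CPM in COLD, and within cluster 12 at 33.6 and 70.5 CPM against 24.95 and 16.3 CPM. That call was lost without the top 6% of doublet scores, when Smoc2 was at 16.6 and 0 CPM at RT and at 10.9 and 9.21 CPM in COLD. It was also lost at the finer clustering (edgeR adjusted p = 0.0510), without shared barcodes (edgeR adjusted p = 0.0646) and without any of the RT or COLD libraries (edgeR adjusted p = 0.0522 to 0.361). In CL 0 of the 5 were called by edgeR or DESeq2, where edgeR called 0.413% of all genes. An unadjusted p under 0.05 was reached by 1 of the 5, beside 979 of 9922 genes.

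Hpgd was high in Lin+ macrophage-like cells. It was at 337 and 295 CPM at RT, 37.7 and 20.04 CPM in COLD, and 91.4 and 194 CPM in CL. Hpgd fell in COLD by 3.42 ± 0.44 on the log2 scale (edgeR adjusted p = 0.00115), and the call held in every alternative run for it, with log2 differences of -3.92 to -3.06. In CL the difference of -1.13 ± 0.40 did not pass (edgeR adjusted p = 0.119), but without CL 2 it was -1.91 (edgeR adjusted p = 0.00221). Of 4 genes tested 2 were called lower in COLD, where 16.8% of 11657 genes were called lower and 33.5% in either direction. In CL 0 were called by edgeR or DESeq2, where edgeR called 4.59% of all genes. An unadjusted p under 0.05 was reached by 2 of the 4, beside 3121 of 11657 genes. The other called gene, Smoc2, was near 0, at 1.76 and 2.65 CPM at RT and at 0.187 and 0 CPM in COLD (edgeR adjusted p = 0.0257). With the replicate number as a block Spon1 was called in CL (edgeR adjusted p = 0.0412), at no more than 4.90 CPM. The macrophage-like class was made of different clusters in the groups: cluster 8 of the Lin+ cells, which Lilra5, Mgl2 and Cd163 led with Hpgd among its leading genes, was 74.9% and 78.1% of it at RT and 1.69% and 2.33% in COLD. Within that cluster Hpgd was at 435 and 381 CPM at RT and at 414 and 222 CPM in COLD, where the groups overlapped. In the Lin+ clusters 15, led by Cd209f, Ccl8 and Lyve1, and 18, led by Retnla and Lyz1, both COLD values lay below both RT values, at 283 and 345 CPM against 215 and 137 CPM in cluster 15 and at 56.4 and 37.6 CPM against 10.9 and 14 CPM in cluster 18. In the Lin+ cluster 3, which made up 53.9% and 51.2% of the class in COLD, it was at 45.6 and 20.8 CPM. In the Adrb1 line Hpgd in macrophage-like cells was at 275 and 40.2 CPM in WT RT and WT COLD and at 334 and 117 CPM in KO RT and KO COLD.

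Blnk was measured in its textbook cell type. In B-like cells of the Lin+ libraries it was at 150 and 160 CPM at RT, 176 and 180 CPM in COLD, and 149 and 158 CPM in CL. The log2 difference was 0.02 ± 0.19 in COLD (edgeR adjusted p = 0.977) and -0.07 ± 0.18 in CL (edgeR adjusted p = 0.961), with 0.383% and 0.309% of 8084 genes called. Blnk in macrophage-like cells was at 87.7 and 84.2 CPM at RT and at 109 and 116 CPM in COLD, a difference of 0.41 ± 0.17 that did not pass (edgeR adjusted p = 0.0839). In C57BL/6J the COLD values in these cells were thus not below RT, as they were in ASC1-like cells. In the Adrb1 line B-like cells had 259 CPM in WT RT, 188 CPM in WT COLD, 219 CPM in KO RT and 172 CPM in KO COLD.

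**Figure D5:**
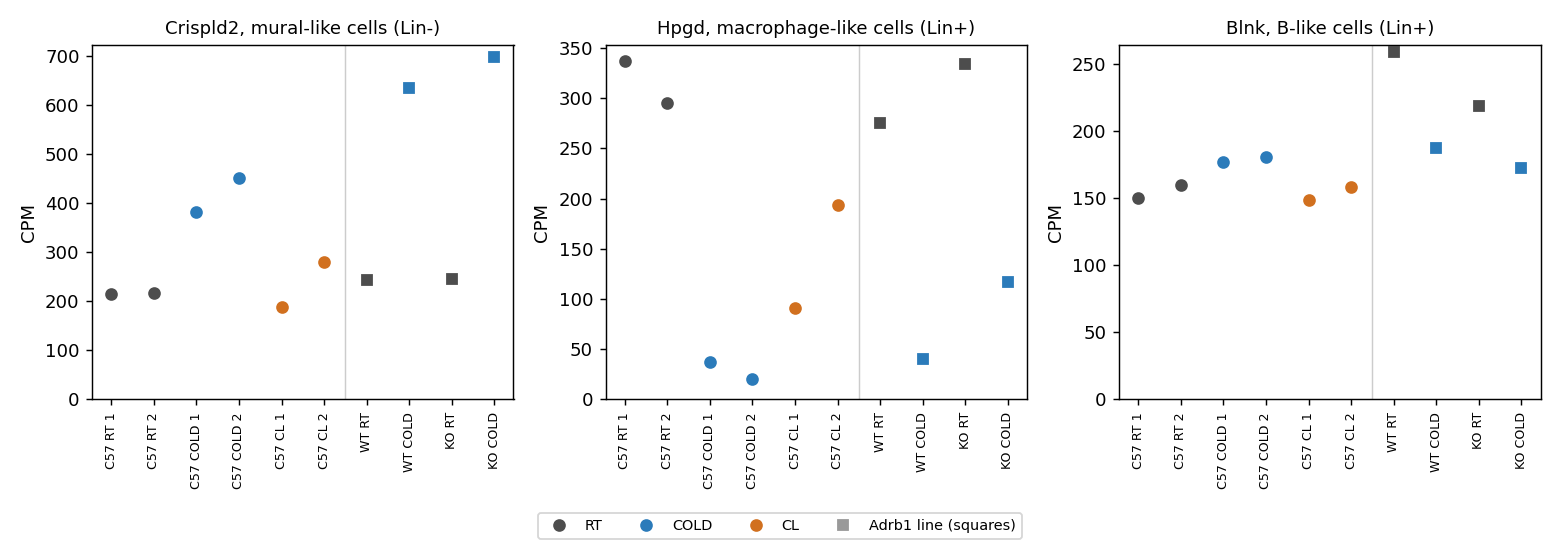
Levels (CPM of summed counts) of Crispld2 in mural-like cells, Hpgd in macrophage-like cells and Blnk in B-like cells, 1 point per library of the C57BL/6J and Adrb1 lines. Crispld2 in mural-like cells is at 215 and 217 CPM at RT and at 382 and 452 CPM in COLD, and Hpgd in macrophage-like cells is at 337 and 295 CPM at RT and at 37.7 and 20.04 CPM in COLD.

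Stromal cells were also found in the Lin+ libraries, which the choice of genes had not used, though they came from the same pools of mice. Smoc2 in them was at 3158 and 2422 CPM at RT (23 and 27 cells), 279 and 215 CPM in COLD (20 and 22 cells), and 115 CPM in CL 1 (12 cells). Of the 942 Lin+ stromal cells, 750 were in CL 2, and 698 of these 750 (93.07%) had a barcode that was also in the Lin- library of CL 2, so that they need not be other cells than those above. Smoc2 was at 421 CPM in all 750 and at 590 CPM in the 52 without a shared barcode. Crispld2 was at 457.5 and 569 CPM at RT and at 77.6 and 63.3 CPM in COLD. Both genes lay lower in both COLD libraries than in both RT libraries, and with 12 cells in CL 1 no test was run. Blnk was at 61.4 and 112 CPM at RT and at 7 and 28.3 CPM in COLD, while Spon1 was at 191 and 38.7 CPM at RT and overlapped COLD, at 15.4 and 69.3 CPM.

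Genes related to the 8 by family or pathway were taken as fixed lists and read in the same ASC1-like fit, over 73 genes tested. In COLD 16 of them were called, 6 higher and 10 lower, beside 7.47% of all genes higher and 6.88% lower. In CL 3 were called, beside 1.63% of all genes. With the replicate number as a block 20 were called in COLD and 7 in CL, beside 2641 and 525 of all 12697 genes. The COLD count was 4 of 67 tested (3 higher, 1 lower) in cluster 2 alone, beside 272 of 10909 genes. It was 4 of 63 (1 higher, 3 lower) in clusters 0 and 8, beside 224 of 10958 genes. Over all stromal cells it was 3 of 79 (1 higher, 2 lower), beside 595 of 14224 genes. In CL it was 2, 1 and 0, beside 93, 42 and 0 of all genes in the same order. Smoc1, the closest relative of Smoc2, rose in COLD by 3.04 ± 0.24 on the log2 scale (edgeR adjusted p = 0.000469) and in CL by 2.72 ± 0.25 (edgeR adjusted p = 0.00346). Of the SPARC and SMOC family, 5 of 7 were tested and Spock2, a matrix proteoglycan, fell in COLD by 1.61 ± 0.33 (edgeR adjusted p = 0.0149). The family thus held changes in both directions over the whole class. Smoc1 was among the leading genes of cluster 8, and the make-up of the class by cluster differed between RT and COLD. Values of single related genes within clusters are not given here.

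Of 7 fibulin-type genes, 7 were tested and 2 fell in COLD: Hmcn2, which encodes hemicentin-2, by 2.99 ± 0.42 (edgeR adjusted p = 0.00324), and Fbln1, which encodes fibulin-1, by 1.31 ± 0.27 (edgeR adjusted p = 0.0150). Of 9 spondin and thrombospondin genes 7 were tested and 3 rose: Thbs4 by 2.32 ± 0.66 (edgeR adjusted p = 0.0479), Thbs2 by 1.32 ± 0.27 (edgeR adjusted p = 0.0142) and Thbs1 by 1.01 ± 0.20 (edgeR adjusted p = 0.0131). These 3 thrombospondins, matrix glycoproteins, thus rose, while Thbs3, at -0.56 ± 0.19 (edgeR adjusted p = 0.0882), did not pass. In CL Thbs2 rose by 1.55 ± 0.27 (edgeR adjusted p = 0.0296) and Thbs3 by 1.11 ± 0.19 (edgeR adjusted p = 0.0299). Of the 3 tested CAP-domain genes related to Crispld2, Pi15 was at -1.22 ± 0.55 in COLD (edgeR adjusted p = 0.172), Glipr2 at 0.12 ± 0.18 (edgeR adjusted p = 0.701) and Pi16 at -0.22 ± 0.39 (edgeR adjusted p = 0.743), and none passed in CL either. These genes, and those named below for Blnk, were picked after their values were seen.

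Among 17 prostaglandin genes tested, Ptges, a prostaglandin E synthase, fell in COLD by 0.90 ± 0.18 (edgeR adjusted p = 0.0138) and Ptges2, another such enzyme, rose by 0.68 ± 0.18 (edgeR adjusted p = 0.0383). Among 5 neurexin-related genes tested, Lrrtm3, which encodes a neurexin ligand, fell by 2.33 ± 0.39 (edgeR adjusted p = 0.00676). Among 20 mesenchymal transcription factors tested, 1 rose and 5 fell in COLD, the median of the list being -0.36. The 3 largest of these were falls: Osr1 by 1.25 ± 0.30 (edgeR adjusted p = 0.0264), Zic1 by 0.74 ± 0.19 (edgeR adjusted p = 0.0370) and Meox2 by 0.73 ± 0.15 (edgeR adjusted p = 0.0146). Of 9 tested genes that act with Blnk in B cell receptor signalling, none passed in edgeR in COLD or CL. The one with the smallest p in COLD was Cblb, a ubiquitin ligase, at 0.64 ± 0.21 (edgeR adjusted p = 0.0711), and Plcg1, a phospholipase C, was at -0.42 ± 0.18 (edgeR adjusted p = 0.153).

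Across the 10 Lin- libraries, the stromal levels most like the mean of the 8 genes, out of 6917 genes at a mean of 20 CPM or more, were those of Fam198b (Pearson r = 0.968), Arhgap24 (0.967), Cystm1 (0.966), Rab3a (0.958), Rnf167 (0.956), Degs1 (0.955), Gm14964 (0.952) and Aktip (0.951). Gm14964 overlaps Nrxn2 on the opposite strand, and whether their counts are separate was not examined. For Smoc2 alone they were Podn (0.986), Cyp2d22 (0.965), Asah1 (0.961), Nptn (0.956) and Tpcn1 (0.955). Among the 8 genes themselves, Smoc2, Crispld2 and Spon1 formed a group, with r of 0.934 to 0.948 between them. Blnk and Nrxn2 were at 0.985, and Fbln7 was at 0.901 with Blnk and 0.867 with Nrxn2. Hpgd and Gsc were at 0.827, whereas Smoc2 with Fbln7 was at 0.28 and with Gsc at 0.138. These values are descriptions over libraries that share temperature, line and kit.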

How the data were processed

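Single-cell libraries of interscapular brown fat, 10 Lin- and 10 Lin+, were analysed. The authors made the deposited matrices with Cell Ranger 3.0.1 on mm10, per the submitters' processing notes, and removed ambient RNA with SoupX, taking Fabp4 and Car3 as genes that most cells do not express. The deposited values are therefore estimated counts: 97.2% to 99.6% of the non-zero entries of a library were not whole numbers. That correction can lower a gene in cells that do not express it, and shares of cells with a count depend on it. Total counts and the number of cells per library set the precision.

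Cells with under 10% mitochondrial counts and at most 15000 counts were kept, with at most 4000 genes in Lin+ and at least 100 genes in Lin- libraries, which left 66339 of 89637 Lin- and 59935 of 67122 Lin+ barcodes. Clusters were made with scanpy 1.11.5 and leidenalg 0.10.2 (2000 variable genes, 30 components, 30 neighbours, resolution 1, seed 1). The cohorts were first aligned with a purpose-written version of harmony. The genes followed here, the marker and gate genes and mitochondrial genes were left out of the variable genes. A cluster was named X-like from at least 3 markers of its list raised by a log2 fold of 1 or more. The rule that settled ties between lists was chosen after the clusters were seen. No doublets were removed, except in an alternative without the top 6% of doublet scores. That score was purpose-written, as the share of simulated doublets among the nearest neighbours of a cell. Counts were summed per library and class (at least 20 cells), rounded, and tested with edgeR 4.0.16 in R 4.3.3 (filterByExpr, TMM, quasi-likelihood test, two-sided, Benjamini-Hochberg over all genes tested, threshold 0.05). The 6 C57BL/6J libraries entered 1 fit. SE is the log2 difference over the square root of F. Mural-like, macrophage-like and B-like cells were added to the tests after the data were seen. DESeq2 1.42.0 was an alternative. The gates took 2 cycle-gene counts and 1 Adipoq count, and log2 ratios of gates added 5 CPM.

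The genes named were the 8 members, the called genes of each family list with the largest log2 difference (at most 3 per contrast), the 8 genes most like the members and the 5 most like Smoc2. The members and lists were chosen with earlier results of these data known. The study merged libraries of the same replicate experiment, so the replicate numbers mark a shared experiment. The deviations of replicate 1 from its group mean correlated over 12697 genes by 0.168 between RT and COLD, 0.0116 between RT and CL and 0.359 between COLD and CL. Replicates differed by more than sampling noise (chi-square per degree of freedom 28.7 to 43.5). The edgeR test was first run on simulated data for COLD against RT in ASC1-like cells, and not separately for the other contrasts and classes.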

Additional observations from a re-analysis of the deposited data

Results flagged for a closer look

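With no doublets removed, the cold difference of Smoc2 in mural-like cells had opposite signs in the mouse lines. It went from 108 and 111 CPM at RT to 23.8 and 16.8 CPM in COLD in the C57BL/6J libraries, and from 39.1 to 81.0 CPM in WT and from 1.45 to 11.3 CPM in KO of the Adrb1 line. The KO levels rested on only 0.52 counts in KO RT and 4.61 counts in KO COLD. The C57BL/6J fall was lost once cells with the top 6% of doublet scores were left out. RT 1 then held 16.6 CPM and RT 2 held 0, on either side of COLD 1 (10.9 CPM) and COLD 2 (9.21 CPM). The difference between the lines was not tested, with 1 library a group in the Adrb1 line and its kit changed with temperature. The cold difference of Crispld2 in C57BL/6J had opposite signs in cell types: in mural-like cells it went from 215 and 217 CPM at RT to 382 and 452 CPM in COLD, whereas in ASC1-like cells both COLD libraries lay below both RT libraries. The smooth muscle cluster 12, at the higher Crispld2 level of the 2 mural-like clusters, made up 158 of 480 and 258 of 657 of these cells at RT and 342 of 580 and 271 of 507 in COLD. Both COLD values lay above both RT values within either cluster. The difference between the types was not tested. Fbln7 in ASC1-like cells lay lower in COLD in C57BL/6J (422 and 658 CPM at RT, 319 and 356 CPM in COLD) and higher in COLD in the Adrb1 line (189 to 194 CPM in WT, 156 to 288 CPM in KO). Within sets of ASC1-like clusters the C57BL/6J difference of Fbln7 was not downward, as given above. The difference of Fbln7 between the lines was not tested either.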

How the results depend on the processing

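The spread rested on 2 libraries a group. In the ASC1-like class the genes called in COLD and CL (1822 and 207 over all genes, 16 and 3 over the family lists) became 2872 and 952 (26 and 13) with no filter on low counts, 595 and 0 (3 and 0) over all stromal cells, 272 and 93 (4 and 2) in cluster 2 alone, 224 and 42 (4 and 1) in clusters 0 and 8, and, in CL, 380 (7) with DESeq2, 525 (7) with the replicate block, and 66 (1) without the barcodes shared by the CL 2 libraries. Leaving out each library gave 491 to 2370 genes in COLD and 39 to 533 in CL, and 3 to 23 and 1 to 8 family genes. The median of the 8 genes was -1.09 in cluster 2 and -1.13 in clusters 0 and 8 in COLD, -0.79 in clusters 0 and 8 and -1.96 over all stromal cells in CL, and -1.97 to -1.58 (COLD) and -1.72 to -1.05 (CL) without single libraries. With no filter 1 member was called in ASC2-like COLD (beside 509 of 18009 genes), 1 in ASC3-like COLD (207 of 16597) and 1 in ASC3-like CL (115 of 16597). In mural-like CL 1 was called (364 of 16622). In macrophage-like cells 2 were called in CL (2020 of 18290) and 3, from 2, in COLD (4640 of 18290). The replicate block added 1 in ASC2-like COLD (beside 273 of 11046 genes called) and 1 in macrophage-like CL (925 of 11657). Apart from those given for ASC1-like cells, it changed no other call of a member. In mural-like COLD the call went to 0 without the top doublet scores, at resolution 2 and without the shared barcodes. Without single libraries, the number of members called changed in ASC2-like COLD. It also changed in ASC3-like, mural-like and macrophage-like cells in either contrast. The number called over all genes moved there too. The number of members called did not change in ASC2-like CL or in B-like cells. The cycling median turned to 0.37 per 1000 cells and was -0.49 to -0.43 without single libraries, and the Adipoq median was then -1.02 to -0.03, and -1.23 with the gates set after thinning. The cause of these changes was not tested. Smoc2, Crispld2, Spon1 and Blnk kept their direction in ASC1-like cells in 17 of 17 alternatives for COLD and for CL. Fbln7 did so in 15 and 16, Nrxn2 in 16 and 17, Hpgd in 16 and 15, and Gsc in 15 and 15. The genes were chosen from these same libraries as lost in the cold, so these directions are no independent support. Resolution 2 was not run for Lin+ cells. The alternatives by cluster and shared barcodes, and all those for mural-like, macrophage-like and B-like cells, were chosen after seeing the data.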
